A study of Mus musculus with 24 samples.

Results

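The 4 miRNA families miR-297, miR-466, miR-467 and miR-669 were followed in serum exosomes from toosendanin-treated mice. Toosendanin (TSN) is a Melia triterpenoid that is toxic to the liver at high doses. Members were the non-control rows of the array whose mouse miRNA name begins with one of these 4 family names followed by a character that is not a digit. This gave 61 members, read by 162 probes, of 1881 miRNAs read by 4415 probes. Male BALB/c mice received toosendanin at 80 mg/kg or vehicle (control) for 3, 9 or 21 days, and serum was taken a day after the last dose. Each of the 6 groups, which are control day 3, control day 9, control day 21, TSN day 3, TSN day 9 and TSN day 21, had 4 one-colour arrays, so n = 4 per group throughout. No allele, age or genotype beyond the strain is given in the sources used here, and it is not stated whether an array holds RNA of 1 animal or of pooled animals. The p-values therefore cover the spread between these samples only, which may be technical.

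MicroRNAs are short RNAs cut from hairpin precursors. Each hairpin can give a product from its 5′ arm (5p) and one from its 3′ arm (3p), and bases 2 to 8 of the mature strand, the seed, guide it to messenger RNAs that it represses. These 4 families belong largely to a rodent cluster with many repeated copies inside an intron of Sfmbt2, an imprinted Polycomb group gene that is expressed in the placenta. In a hairpin of these families one arm is often rich in alternating U and G and the other in alternating C and A, so that many members resemble each other and also resemble simple repeats. In serum, fewer vesicles of one origin and less of a miRNA per vesicle cannot be told apart.

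RefSeq's gene table (assembly GRCm38.p6) lists 81 precursors of the 4 families, of which 71 lie within the span of Sfmbt2 on chromosome 2 and 10 lie elsewhere. All 61 members matched at least 1 precursor by name. For 50 members every precursor lay inside Sfmbt2, for 8 every precursor lay outside it, and 3 had precursors in both places. The table's assembly differs from the build named in the array's headers, so positions are not given.

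The array reads each miRNA with DNA probes complementary to its 3′ part, so a probe's repeat mirrors the miRNA's own. A probe with alternating C and A (CA run) reads a U and G rich miRNA, and a probe with alternating G and T (GT run) reads a C and A rich one. The probes of the 8 members that could be tested are shown because these runs are what the probes of the families share and differ in. Each is written 5′ to 3′ with its longest CA or GT run in capitals.

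miR-466i-5p: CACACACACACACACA

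miR-669n: acacacatcCACACACA

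miR-669e-5p: atgaacatgCACACACA

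miR-466h-3p: GTGTGTGTGTGcgt

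miR-466f-3p: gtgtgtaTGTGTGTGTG

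miR-466i-3p: tagtgtgtaTGTGTGTGTG

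miR-669f-3p: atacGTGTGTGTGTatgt

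miR-466b-3p: tcttaTGTGTGcgtgta

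The probe of miR-466i-5p was the repeat alone, 16 bases long. A probe of 14 to 23 bases stood for each of the 61 members. With a minimum run of 6 bases, 17 members had a CA run, 29 had a GT run and 15 had neither. Such runs were rare on the array as a whole, where 2.39% of the 1881 miRNAs had a probe with a CA run and 2.07% one with a GT run. The files also list miR-669c-5p for the probe of miR-669n, miR-669a-3p and miR-669o-3p for that of miR-669f-3p, and miR-466a-3p for that of miR-466b-3p, so these cannot be told apart.

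RefSeq's miRNA table held mature sequences for 7 of the 61 members. The 4 of these that the arrays detected are shown with the seed in capitals, and no seed was shared between any of the 7.

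miR-466i-3p: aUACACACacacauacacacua

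miR-466q: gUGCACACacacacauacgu

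miR-467f: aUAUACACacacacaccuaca

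miR-669n: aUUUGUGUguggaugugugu

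The first 3 are C and A rich and the last, miR-669n, is rich in U and G. Each of these seeds was held by 1 mature miRNA among the 1679 in the table. Since that table lacks most members of the families, seeds shared with the missing members could not be seen.

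Detection of the families in serum exosomes was near that of the array as a whole. A member was counted as well above background on an array where over a 0.5 share of the spots of its probe carried that mark in the scanner file. Of the 61 members, 20 were well above background on at least 1 of the 24 arrays, 41 on none, and 0 on all. The 20 are 32.8% of the members, and 28.9% of the 1881 miRNAs on the array were detected by the same measure. The 20 comprised 10 of 23 members of miR-466, 8 of 23 of miR-669, 2 of 12 of miR-467 and 0 of 3 of miR-297. By arm, 9 of 26 members named 3p, 8 of 25 named 5p and 3 of 10 with no arm in the name were detected. All 20 detected members had a repeat run, 9 of the 17 with a CA run and 11 of the 29 with a GT run, and none of the 15 with neither was detected. Detection covered 5 of the 8 members with all precursors outside Sfmbt2 and 14 of the 50 with all precursors inside it. These loci follow the member's name. The outside group includes miR-669n, whose probe is also listed for miR-669c-5p from inside Sfmbt2.

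TSN arrays detected more members than control arrays at days 3 and 9. At day 3, 1, 1, 3 and 2 members were well above background on the 4 control arrays and 10, 6, 13 and 8 on the 4 TSN arrays. At day 9 the control arrays had 1, 2, 4 and 1 and the TSN arrays 9, 15, 10 and 7, so that the arms did not overlap on either day. At day 21 the control arrays had 2, 5, 7 and 3 and the TSN arrays 9, 9, 6 and 7, and the arms overlapped. The mean rose from 1.75 ± 0.957 to 9.25 ± 2.99 members (SD) at day 3 and from 2 ± 1.41 to 10.25 ± 3.4 at day 9 (exact two-sided permutation test over 70 allocations, p = 0.0286, the smallest it allows, adjusted p = 0.0429 at both days). At day 21 it was 4.25 ± 2.22 in control and 7.75 ± 1.5 in TSN samples (exact permutation p = 0.0857, adjusted p = 0.0857). Without control day 3 replicate 1, 2 or 4 the exact permutation p at day 3 was 0.0571, although the arms still did not overlap.

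**Figure D1:**
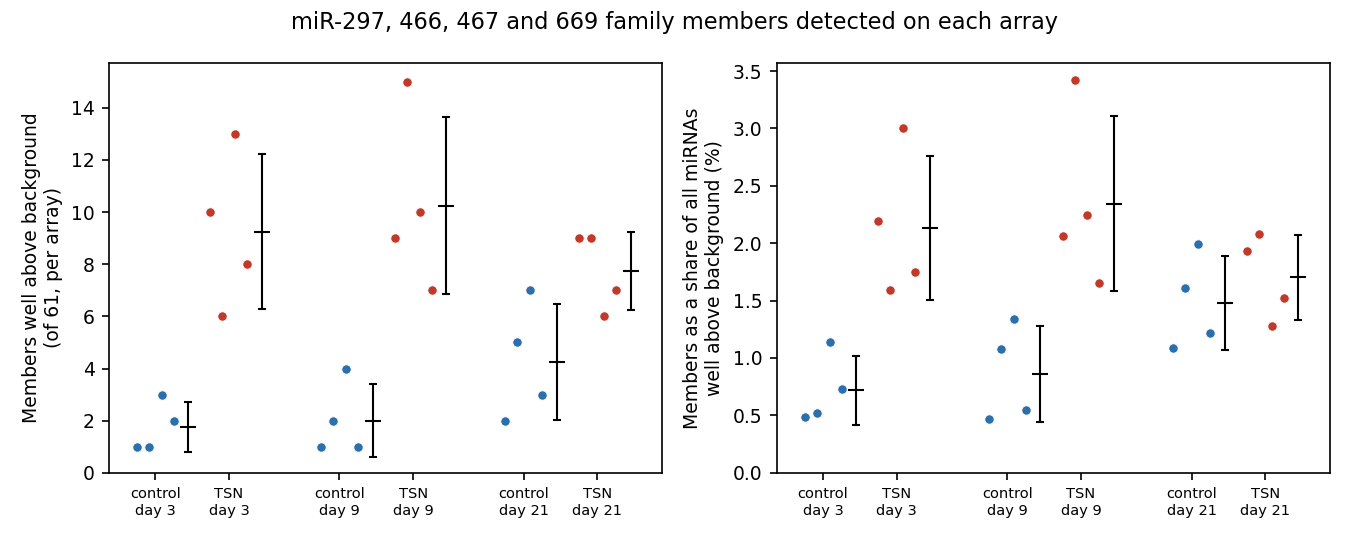
Number of the 61 members well above background on each array (left, members per array) and the same as a percentage of all miRNAs well above background on that array (right), for control (blue) and TSN (red) samples at each day. Each point is 1 of 4 arrays and the black mark with its bar is the mean ± SD. At days 3 and 9 every TSN array lies above every control array in both panels, and at day 21 the arms overlap in both.

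The TSN arrays were brighter as a whole. Their 75th percentile signal, taken over 261 probes that every array detected, was 737 to 1750 against 73.5 to 609 on control arrays, and at least 378 of all 1881 miRNAs were well above background against at most 351. As a share of all miRNAs detected on an array, members made up 2.13% in TSN and 0.718% in control samples at day 3 and 2.35% and 0.859% at day 9 (exact permutation p = 0.0286 each, adjusted p = 0.0429), but 1.70% and 1.48% at day 21 (exact permutation p = 0.457). Among control arrays this share was 1.99% on the brightest (75th percentile 609) and 0.546% on the dimmest (73.5), and its lowest value was 0.469% (at 118). Among TSN arrays it was 1.93% on the brightest (1750) and 1.59% on the dimmest (737). Between these it did not follow brightness in the TSN arm, with 3.42% at 1620 and 1.28% at 1500. The part of brightness in the difference between arms was not tested. Control days 3 and 9 shared a slide, TSN days 9 and 21 shared another, and control day 21 and TSN day 3 had a slide each. Since control and TSN samples never shared a slide or a scan date, an effect of arm cannot be told apart from one of slide or scan date. The comparisons that lie within 1 slide are TSN day 21 against TSN day 9 and control day 9 against control day 3. In both, each day filled its own row of the slide, so an effect of day and one of slide row cannot be told apart. The mean 75th percentile was 1520 at TSN day 9 and 1420 at TSN day 21.

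For the comparisons below, signals were scaled to the 75th percentile of their array and raised to a floor of 0.0135 where they lay under it, which is -6.21 after taking log2. Values at the floor are tied in the fit. On some TSN arrays the floor lay above signals that were well above background, so a value at the floor was not always an undetected one. A miRNA was tested if some group had it well above background on its 4 arrays. This held for 8 members, 13.1% of them against 23.4% of all miRNAs, and p-values were adjusted over the 441 miRNAs tested. miR-466i-5p and miR-669f-3p met this in control groups as well and the other 6 through TSN groups alone, so the counts that follow cover neither all members nor a sample chosen without regard to the TSN signal.

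At day 3, 4 of the 8 tested members were called higher in TSN samples and 0 lower (limma, adjusted p below 0.05), where 29.3% of all tested miRNAs were called higher and 18.6% lower, 47.8% in all. At day 9, 2 were called higher and 3 lower, where 27.7% of all tested miRNAs were higher and 34.5% lower, 62.1% in all. At day 21, 0 were called higher and 3 lower, where 23.1% were higher and 21.8% lower, 44.9% in all. The arrays of the 2 arms did not overlap for 3, 5 and 0 of the 8 at days 3, 9 and 21, where 40.6%, 51.9% and 38.8% of all tested miRNAs did not overlap. The median log2 difference of the 8 was 0.50, -0.12 and 0 at days 3, 9 and 21, and that of all 441 was 0.10, -0.04 and 0.01. The effect of TSN at day 9 minus that at day 3 was called for 0 members as higher and 3 as lower, where 3.85% and 15.2% of all tested miRNAs were called, 19% in all. The effect at day 21 minus that at day 9 was called higher for 1 and lower for 2, where 23.4% and 11.8% were called, 35.1% in all. Where 0 members were called in a direction, 0 had an unadjusted p below 0.05 in it either. Without replicate 1 or 2 of control day 3 or 2 or 3 of TSN day 3, 2 members were called at day 3, and without replicate 4 of control day 21 or 3 or 4 of TSN day 21, 1 was called at day 21. With 8 members these shares are a description, and the members are given one by one below.

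miR-466i-5p was the member detected most often, well above background on 23 of 24 arrays. It is the 5′ product of a precursor on chromosome 13, outside Sfmbt2. At day 3 its scaled log2 signal was -1.86, -2.15, -1.48 and -1.77 in control samples and -0.68, -0.22, -0.16 and -0.80 in TSN samples. At day 9 it was -4.03, -1.73, -1.79 and -1.82 in control and -0.28, 0.26, -0.10 and 0.05 in TSN samples. Every TSN array lay above every control array on both days. The log2 difference was 1.35 ± 0.43 (SE, limma adjusted p = 0.0136) at day 3 and 2.33 ± 0.43 (adjusted p = 0.000112) at day 9. Control day 9 replicate 1 stood far below the others and was the one array where this miRNA was not well above background, and without it the day 9 difference was 1.77.

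At day 21 the arms overlapped for miR-466i-5p. Its scaled log2 signal was -1.88, -1.07, -2.68 and -1.08 in control and -1.14, -0.58, -1.93 and -1.20 in TSN samples, a difference of 0.46 ± 0.43 that did not pass the test (adjusted p = 0.441). From TSN day 9 to TSN day 21, on the same slide, it fell by 1.20 ± 0.43 on the log2 scale (adjusted p = 0.0297), and the 2 groups did not overlap. On the unscaled signal the means were 1520 at TSN day 9 and 624 at TSN day 21, a ratio of 0.41. The difference between the day 21 and day 9 effects of TSN was -1.87 ± 0.61 (adjusted p = 0.0231), and it was not called without control day 21 replicate 2 or 4 or TSN day 21 replicate 3 (adjusted p up to 0.0567). The fall between TSN days was no longer called without TSN day 9 replicate 2 or 4 or TSN day 21 replicate 3 or 4 (-0.96 to -1.41 over the arrays left out, adjusted p up to 0.105).

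The direction for miR-466i-5p was the same in all 11 alternatives of processing at day 3, at day 9 and from TSN day 9 to TSN day 21. It was called in 10, 11 and 8 of them. The second probe of this miRNA gave differences of 1.32 at day 3, 2.34 at day 9 and -1.21 from TSN day 9 to TSN day 21.

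The precursor of miR-669n lies on chromosome 3, but its probe is also listed for miR-669c-5p, whose precursor lies inside Sfmbt2. The signal can therefore not be assigned to either locus. miR-669n moved in the same directions as miR-466i-5p at a lower signal. Its scaled log2 signal at day 3 was -5.06, -5.21, -4.64 and -4.80 in control and -4.08, -3.64, -3.63 and -4.30 in TSN samples. At day 9 it was at the floor (-6.21) and -4.35, -4.88 and -4.78 in control and -3.57, -2.98, -3.54 and -3.28 in TSN samples. The arms did not overlap on either day, but only 1 of the 4 control arrays was well above background on each, so the control levels are near the limit of detection. The log2 difference was 1.02 ± 0.37 (limma adjusted p = 0.0308) at day 3 and 1.71 ± 0.37 (adjusted p = 0.000584) at day 9, though -1.38 and -1.26 under normexp, where most miRNAs turned negative. At day 21 it was 0.41 ± 0.37 (adjusted p = 0.435), with arms that overlapped, and the day 3 call was lost without replicate 1 or 2 of control day 3 or replicate 2 or 3 of TSN day 3 (adjusted p up to 0.0805).

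All 8 arrays of TSN days 9 and 21 measured miR-669n. At TSN day 21 its scaled log2 signal was -4.44, -3.92, -5.40 and -4.64, every array below those of TSN day 9. It fell by 1.26 ± 0.37 on the log2 scale (adjusted p = 0.0101), from an unscaled mean signal of 153 to 60.4, a ratio of 0.396. This fall kept its direction in 11 of 11 alternatives and was called in 8, and it stayed called with any one array left out (adjusted p up to 0.048). The difference between the day 21 and day 9 effects of TSN was -1.30 ± 0.53 and did not pass the test (adjusted p = 0.0608), though it did with the replicate block (adjusted p = 0.045). The second probe of miR-669n gave 0.99, 1.54 and -1.22 at day 3, at day 9 and between TSN days.

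miR-669e-5p, the third tested member with a CA run and one from inside Sfmbt2, was dim. It was well above background on all 4 TSN day 9 arrays, with signals of 15.9, 23.7, 15.0 and 11.3, on 1 TSN day 3 array and on no other. At TSN day 21 its signals were 7.95, 9.07, 4.35 and 6.94, all below those of TSN day 9, although the scaled signals overlapped. On the scaled signal before the floor, the mean at TSN day 21, where no array was well above background, was 0.488 of that at TSN day 9. Since miR-669e-5p was tested only because TSN day 9 detected it, it had to be lower elsewhere, and this ratio supports nothing further. On the scale with the floor nearly all values were tied, so that the fit gave -6.18 and -6.21 and no call (limma adjusted p = 0.954).

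**Figure D2:**
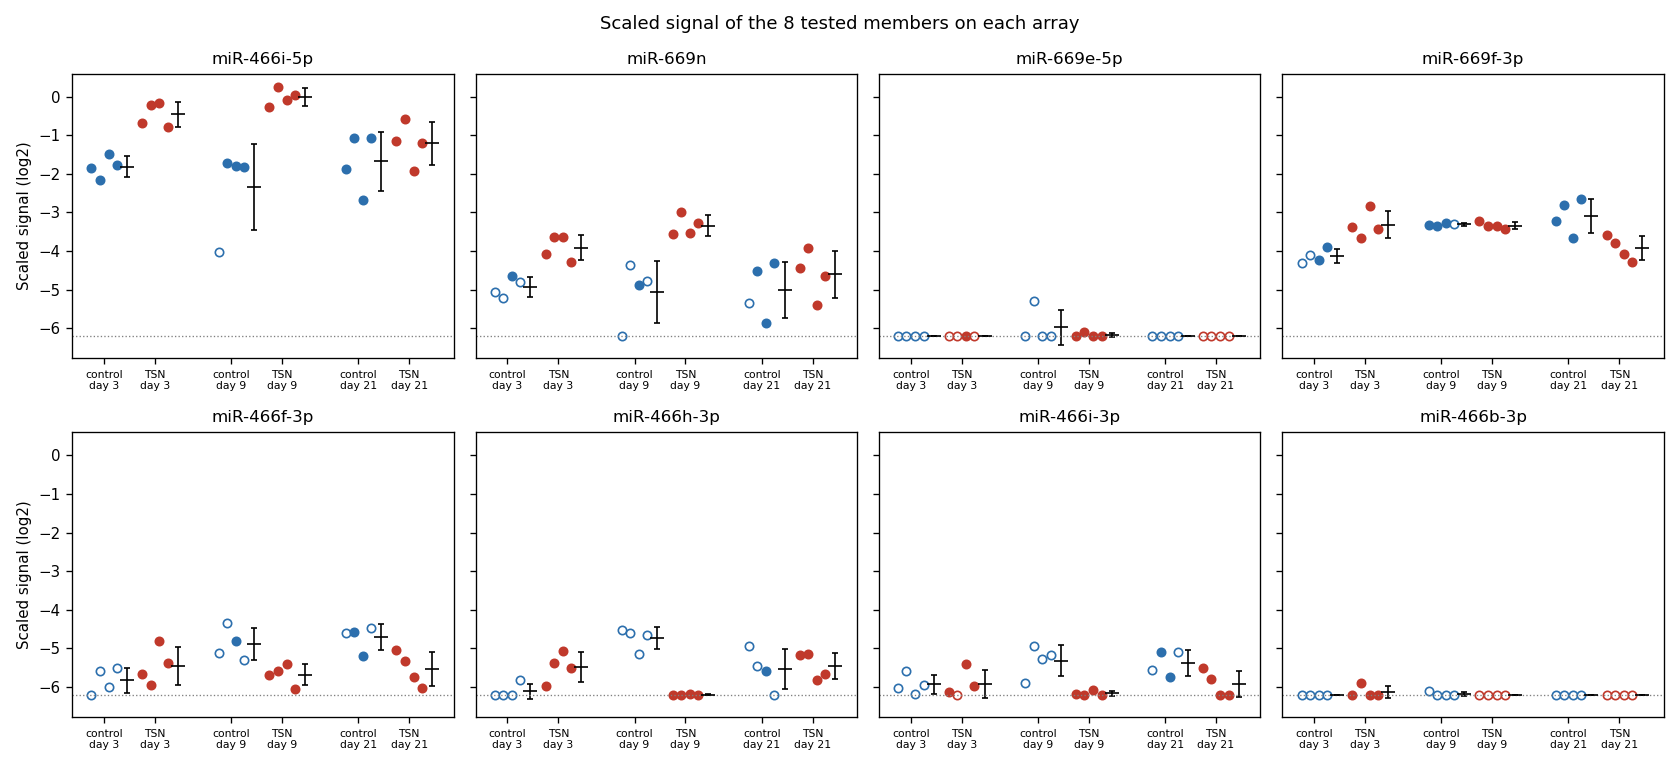
Scaled signal (log2) of the 8 tested members on each of the 24 arrays, by arm and day, with control in blue and TSN in red. Filled points were well above background, open points were not, the dotted line is the floor at -6.21 and the black mark with its bar is the mean ± SD of 4 arrays. miR-466i-5p and miR-669n are highest at TSN day 9 and lower at TSN day 21, while miR-466h-3p lies at the floor on 3 of 4 TSN day 9 arrays and above it on all 4 TSN day 21 arrays.

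The 5 tested members with a GT run are all 3′ products. miR-669f-3p, from inside Sfmbt2, was well above background on 21 arrays and was the best measured of them. At day 3 its scaled log2 signal was -4.32, -4.09, -4.23 and -3.89 in control and -3.37, -3.66, -2.82 and -3.43 in TSN samples. The arms did not overlap, and the difference was 0.81 ± 0.19 (limma adjusted p = 0.00144).

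At day 9 the arms of miR-669f-3p overlapped, with -3.32, -3.34, -3.26 and -3.29 in control and -3.22, -3.36, -3.34 and -3.43 in TSN samples, a difference of -0.04 ± 0.19 (adjusted p = 0.921). At day 21 it was called lower in TSN samples, with -3.22, -2.82, -3.66 and -2.66 in control and -3.59, -3.78, -4.08 and -4.28 in TSN samples. The difference was -0.84 ± 0.19 (adjusted p = 0.00142), although the arms overlapped, and with no scaling between arrays it was 1.68 in the other direction. The total gene signal of the software turned the day 3 direction (-3.91), and so did normexp (-1.07).

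For miR-669f-3p the day 9 effect minus the day 3 effect was -0.85 ± 0.27 (adjusted p = 0.0328), which was not called with the replicate block (adjusted p = 0.0569), and the day 21 effect minus the day 9 effect was -0.81 ± 0.27 (adjusted p = 0.0283). The first was lost without any one of 7 of the 16 arrays (adjusted p up to 0.065) and the second without control day 21 replicate 2 or 4, TSN day 9 replicate 1 or TSN day 21 replicate 3 or 4 (up to 0.071). From TSN day 9 to TSN day 21 it fell by 0.59 ± 0.19 (adjusted p = 0.0171), a ratio of 0.632 on the unscaled signal, in the same direction in 11 of 11 alternatives. Without TSN day 21 replicate 3 or 4 that fall was not called (adjusted p up to 0.0692), nor was it with the second probe of this miRNA (-0.51, adjusted p = 0.0921).

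miR-466h-3p, whose probe is nearly a pure GT repeat, had its lowest scaled signal among TSN groups at day 9. At TSN day 3 it was -5.98, -5.38, -5.06 and -5.52, and at TSN day 9 it was -6.18 on 1 array and at the floor on the other 3. At TSN day 21 it was -5.17, -5.16, -5.82 and -5.67. All 12 of these arrays were well above background. From TSN day 9 to TSN day 21 it rose by 0.75 ± 0.23 (limma adjusted p = 0.0111) with no overlap, and the unscaled means were 16.1 and 33. The direction held in 10 of 11 alternatives, the exception being the total gene signal (-0.15), and 6 called it. The second probe, detected on 6 arrays against 13, gave 0.11 between TSN days (adjusted p = 0.62), and 0 and -0.48 against control at days 3 and 9, the latter called (adjusted p = 0.00943).

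Against control, miR-466h-3p was called higher at day 3 (0.63 ± 0.23, adjusted p = 0.0278, lost without replicate 1, 2 or 3 of control day 3 or 2 or 3 of TSN day 3) and lower at day 9 (-1.47 ± 0.23, adjusted p = 1.61e-05). In neither comparison was a control array well above background, so those control values are bounds. The day 3 difference was -1.995 under normexp and the day 9 difference was 0.71 with no scaling, each in the other direction.

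miR-466f-3p and miR-466i-3p are both C and A rich 3′ products, one with precursors inside and outside Sfmbt2 and the other from chromosome 13. miR-466f-3p lay between -6.05 and -4.80 on the 12 TSN arrays, all well above background, and was called lower in TSN samples at day 9 (-0.80 ± 0.27, limma adjusted p = 0.0143) and day 21 (-0.82 ± 0.27, adjusted p = 0.0173). miR-466i-3p was likewise called lower at day 9 (-0.85 ± 0.22, adjusted p = 0.00235) and day 21 (-0.55 ± 0.22, adjusted p = 0.046). At most 2 of 4 control arrays were well above background for either in these comparisons, and for miR-466i-3p at day 9 none was. For miR-466f-3p the day 9 call was lost without control replicate 2 or TSN replicate 4 (adjusted p up to 0.0618) and the day 21 call without control replicate 4 or TSN replicate 3 or 4 (up to 0.0707). For miR-466i-3p the day 21 call was lost without control replicate 2 or 4 or TSN replicate 2, 3 or 4 (up to 0.141), and with the replicate block (adjusted p = 0.0576). With no scaling all 4 differences turned (1.59 and 1.29 for miR-466f-3p, 1.05 and 1.08 for miR-466i-3p).

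From TSN day 9 to TSN day 21 neither passed the test, with differences of 0.15 ± 0.27 for miR-466f-3p and 0.24 ± 0.22 for miR-466i-3p and unscaled ratios of 1.07 and 1.14. Those ratios were 0.835 and 0.887 without TSN day 21 replicate 1. The day 9 effect minus the day 3 effect of miR-466f-3p was -1.18 ± 0.38 (adjusted p = 0.0328), a call lost with the replicate block (adjusted p = 0.0506) and without any one of 9 of the 16 arrays (adjusted p up to 0.0741). It rests on controls detected on 0 of 4 arrays at day 3 and 1 of 4 at day 9. The second probes gave -0.13 and 0.013 for miR-466f-3p and -0.002 and -0.02 for miR-466i-3p at days 9 and 21, none of them called.

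miR-466b-3p, with a run of 6 bases, was well above background on the 4 TSN day 3 arrays only. Its signals there were 14.5, 12.4, 13.4 and 13.5, above the 3.08 to 8.13 of TSN day 9 and the 7.51 to 10.1 of TSN day 21. Since it was tested only because TSN day 3 detected it, it had to be lower elsewhere, and these values support nothing further. TSN day 3 also lay on another slide than TSN days 9 and 21. On the scaled log2 signal it was at or near the floor in every group, and none of its comparisons was called.

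Within the TSN arm, on a single slide, 1 tested member was called higher at day 21 than at day 9 (miR-466h-3p) and 3 were called lower (miR-466i-5p, miR-669n and miR-669f-3p). Over all tested miRNAs 30.6% were called higher and 12.7% lower, 43.3% in all. The groups did not overlap for these 4 members, as for 39% of all tested miRNAs, and the median was 0.18 against -0.01 for the 8 members. Without TSN day 21 replicate 3 or 4, 2 members were called. The 2 members with a CA run that both groups measured had unscaled ratios of 0.41 and 0.396, and the 4 with a GT run had ratios of 0.632 to 2.04. The scaled signal before the floor gave 0.456 and 0.441 against 0.674 to 2.2.

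Members too dim to test are given as values without a test, and those detected in 1 of these groups only had to differ. miR-467f, from chromosome 11, had a mean signal of 5.09 at TSN day 9 and 16.7 at TSN day 21, and was well above background on 0 and 3 arrays. miR-466q, from chromosome 3, had 3.69 and 11.4, on 0 and 2 arrays. miR-669p-3p, from inside Sfmbt2, had 6.65 and 13.1, on 0 and 2 arrays. All 3 have a GT run of 12 bases and were brighter at day 21, by ratios of 3.29, 3.08 and 1.97, which were 2.4, 2.38 and 1.43 without TSN day 21 replicate 1.

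2 dim members with shorter GT runs went the other way, as miR-669f-3p did. miR-466d-3p, the untested member detected most often (3 TSN day 3 and 3 TSN day 9 arrays), had mean signals of 12.7 at TSN day 9 and 8.48 at TSN day 21. miR-669a-3-3p had 11.7 and 6.67, and was well above background on 2 arrays of TSN day 3 and 3 of TSN day 9. Their GT runs were 6 and 9 bases long.

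The dim 5′ products with a CA run were brightest at TSN day 9. miR-669l-5p had mean signals of 8.89, 14 and 6.74 at TSN days 3, 9 and 21, and its probe is also listed for miR-467h and miR-669d-5p. miR-466c-5p, miR-466h-5p, miR-466m-5p, miR-669b-5p and miR-669o-5p were each well above background on a single array, at TSN day 9, with mean signals of 8.37 to 10.5 there and 3.45 to 4.54 at TSN day 21. Their ratios ran from 0.376 to 0.487, and from 0.461 to 0.566 without TSN day 9 replicate 2, the brightest array for these probes. Since these members entered only through the group where they were high, they had to be lower elsewhere. miR-467a-3p was well above background on 1 TSN day 3 array.

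With no filter on detection, the mean unscaled signal was lower at TSN day 21 than at TSN day 9 for 14 of the 17 members with a CA run, for 11 of the 29 with a GT run and for 6 of the 15 with neither. The scaled signal before the floor gave these same 3 counts. Most of these signals were not well above background. The repeat classes were formed after the values had been seen, and members with like probes are not independent, so the counts are a description.

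**Figure D3:**
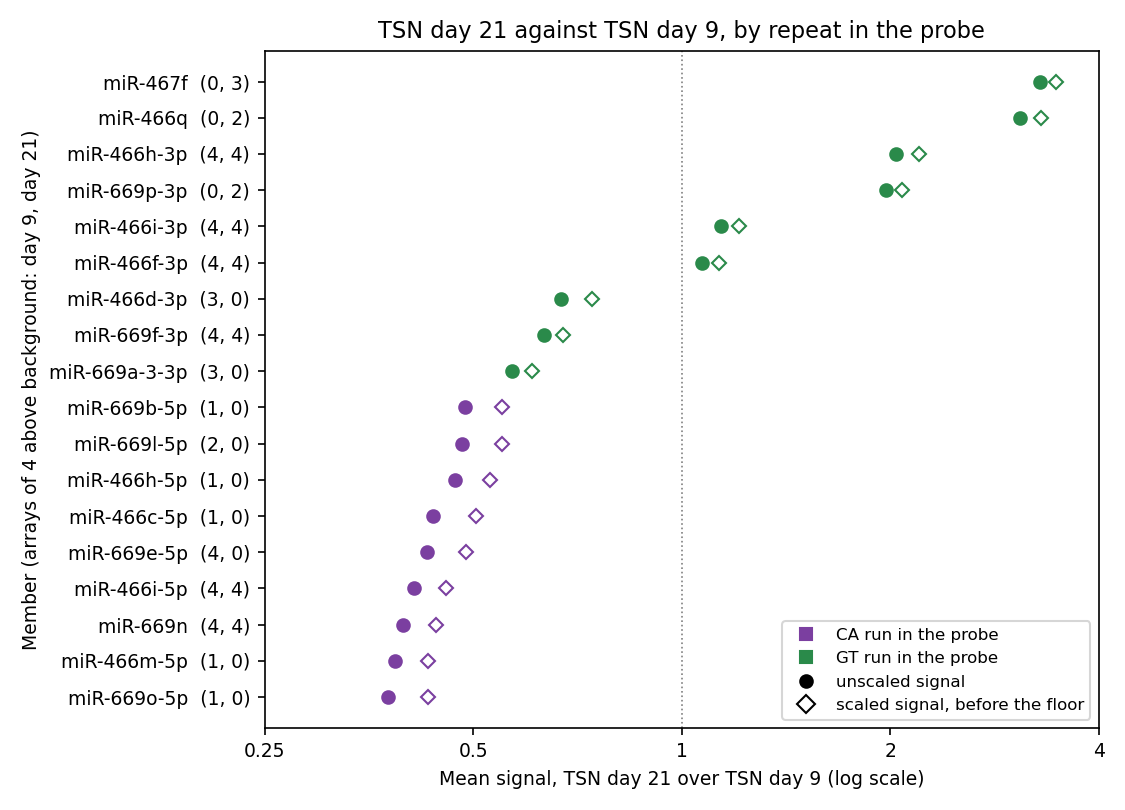
Ratio of mean signal at TSN day 21 to that at TSN day 9 (log scale) for the 18 members well above background on at least 1 of these 8 arrays, in order of the ratio. Purple marks a CA run and green a GT run in the probe, filled circles the unscaled signal and open diamonds the scaled signal before the floor, and the numbers in brackets are the arrays of 4 above background at day 9 and day 21. The 9 members with a CA run have unscaled ratios of 0.376 to 0.487, and the 9 with a GT run run from 0.568 to 3.29. Members detected in only 1 of the 2 groups had to differ in that direction. The repeat classes were formed after the values had been seen, so the split is a description.

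Other miRNAs on the array have probes with a CA run, and 8 of those outside the 4 families were tested. From TSN day 9 to TSN day 21, 3 of the 8 were called lower and 0 higher (4 and 0 at an unadjusted p below 0.05), with a median of -0.58. They were miR-574-5p (-1.35 ± 0.41, limma adjusted p = 0.0123), miR-3082-5p (-1.36 ± 0.46, adjusted p = 0.0206) and miR-468-3p (-1.09 ± 0.23, adjusted p = 0.00072), and miR-1187 missed the threshold (-1.27 ± 0.51, adjusted p = 0.0513). At day 9 against control the 4 were higher in TSN samples, by 2.33, 2.54, 1.01 and 2.26. For comparison, 31.6% of the 424 tested miRNAs outside the families with neither run were called higher from TSN day 9 to TSN day 21 and 11.8% lower.

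The mature sequences of 2 of these, from RefSeq, are shown for their likeness to the U and G rich members, with the seed in capitals.

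miR-574-5p: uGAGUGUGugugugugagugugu

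miR-1187: uAUGUGUGuguguauguguguaa

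The other 4 of the 8 were let-7b-5p, miR-32-3p, miR-7226-5p and miR-9768-3p, none of which was called between TSN days (-0.07 to 0). For miR-7226-5p and miR-9768-3p the difference was 0, the value that ties at the floor give, so it does not show equal signals. Both enter the count and median of the 8. The run was 6 bases long in 3 of them and 9 in miR-32-3p, against 6 to 11 in the 4 that were lower. Outside the families the one tested miRNA with a GT run, miR-6378, differed by 0.18 ± 0.23 (adjusted p = 0.591). Against control at day 9 miR-6378 was called higher (0.69 ± 0.23, adjusted p = 0.0137), where 3 family members with a GT run were called lower. For those 3 at most 1 of 4 control arrays was well above background, and their differences turned with no scaling. let-7b-5p was also called higher there (0.51 ± 0.15, adjusted p = 0.00628), and the other 3 with a CA run were not called (-0.35 to 0).

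Among control samples, on a single slide, 3 tested members were called higher at day 9 than at day 3 and 0 lower, where 9.75% of all tested miRNAs were called higher and 4.31% lower, 14.1% in all. The 2 control groups did not overlap for these 3, as for 17.9% of all tested miRNAs. They were miR-466h-3p (1.38 ± 0.23, limma adjusted p = 0.000976), miR-466f-3p (0.94 ± 0.27, adjusted p = 0.0274) and miR-669f-3p (0.83 ± 0.19, adjusted p = 0.0126). On the unscaled signal the ratios were 2.58, 1.82 and 1.57. miR-466h-3p was well above background on none of these 8 control arrays and miR-466f-3p on 1, so only miR-669f-3p, at 2 and 3 arrays, had measured levels at both days. The call of miR-466f-3p was lost without control day 3 replicate 1 or 3 or control day 9 replicate 2 (adjusted p up to 0.102). Without scaling the 3 differences were 0, 0.03 and 0.30, and none was called. The 0 of miR-466h-3p stands beside its unscaled ratio of 2.58, so it does not show equal signals. miR-466i-5p and miR-669n, with CA runs, were not called (-0.53 ± 0.43 and -0.13 ± 0.37).

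Markers of cells that release RNA into serum moved on some of the same days, and their part in these results was not tested. The 4 striated muscle miRNAs (miR-1a-3p, miR-133a-3p, miR-133b-3p and miR-206-3p) had a summed scaled signal of 0.472 to 4.88 at TSN day 9, against 0.0408 to 0.0924 at control day 9 and 0.0529 to 0.133 at TSN day 21. miR-206-3p was not well above background in any group. All 3 tested ones were higher in TSN samples at day 9 and lower from TSN day 9 to TSN day 21. The 4 red cell miRNAs (miR-451a, miR-144-3p, miR-486a-5p and miR-16-5p) summed to 74.9 to 94.4 at TSN day 9 against 41.5 to 62.8 at TSN day 21, and 3 of 4 were called lower between these days. Against control, 3 of 4 red cell miRNAs were called higher at day 9 (median 1.05) and 1 of 4 lower at day 21. All 3 tested leukocyte miRNAs were called lower in TSN samples at day 9 (median -1.18) and day 21 (median -0.94). Of the 3 tested liver miRNAs 2 were called higher at day 9 (median 1.58). At day 21, 1 was called higher and 0 lower, with a median of -0.40 and a range of -0.50 to 0.69. The 4 leukocyte miRNAs summed to 1.58 to 2 at TSN day 9 against 2.85 to 3.56 at control day 9, and the 4 liver miRNAs to 0.512 to 4.9 against 0.286 to 0.448. At day 3, 1 red cell, 1 liver and 1 muscle miRNA were called higher, and 2 red cell and 1 leukocyte miRNA lower. Between TSN days 1 leukocyte miRNA was called higher and 0 liver miRNAs were called, with 2 lower at an unadjusted p below 0.05.

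A second clustered group of imprinted miRNAs, the Dlk1-Dio3 cluster, was set beside the families. Of its 99 listed miRNAs 8 were well above background on at least 1 array and 6 were tested. From TSN day 9 to TSN day 21, 2 of the 6 were called higher and 1 lower, with a median of 0.46. In TSN against control, 1 of the 6 was called higher at each day and 1, 2 and 1 lower at days 3, 9 and 21.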

How the data were processed

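Per the labels' protocols, miRNA in total RNA of serum exosomes carried the dye Cy3 on an Agilent one-colour array. The deposited scanner files hold intensity per spot. Background was subtracted and a spatial trend corrected by Feature Extraction (10.7.1.1), per the file headers, which record no scaling between arrays. The authors' deposited series values, taken as log2, were used as an alternative only: their medians were 4.373 to 4.4 and each of the 24 columns matched its own array best (r of 0.955 to 0.972), with scaling and centring not given in the sources used here. Control and outlier spots were left out and a probe's spots (median 15) averaged. The number of arrays limits the precision.

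The probe with the highest mean scaled signal stood for a miRNA. One limma fit (3.58.1, R 4.3.3, with version 1.17.8 of data.table; prior degrees of freedom 1.36) covered the 6 groups, two-sided, with Benjamini-Hochberg adjustment at 0.05. On simulated data it called 40 of 40 changes of 2 log2 units, 34 of 40 of 1 and 0 of 361 unchanged. A group undetected on all its arrays gives only a bound on a fold. Differences and ratios printed above that involve such a group are therefore not measured folds. Replicate numbers are the slide column. In TSN against control at day 9, same-numbered arrays deviated together in 4 of 4 pairs (r of 0.204 to 0.357); other comparisons showed no such pattern. No pair of arrays held identical values.

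All tested members are named, with the 12 untested ones detected on the most arrays. Members, lists and tests were chosen with earlier results of these data known. Sequences are from the deposited files and RefSeq (GRCm38.p6). Alternatives covered scaling, background, probe choice, floor, filter, replicate block, groups fitted and left-out arrays. Python 3.11.15, pandas 2.3.3, numpy 2.4.6 and matplotlib 3.10.9 were used.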

Additional observations from a re-analysis of the deposited data

Results flagged for a closer look

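miR-466i-5p on control day 9 replicate 1 had a scaled log2 signal of -4.03, far from the nearest of the other 3 arrays at -1.82, a gap of 0.96 of the group's range. Of the 29 sets of a member in a group with no value at the floor, 1 stood out in this way, where chance gives about 1 in 20.

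The interaction term of the limma fit was called for 4 members. From day 3 to day 9 it changed by -1.18 for miR-466f-3p, -2.10 for miR-466h-3p and -0.85 for miR-669f-3p (3 of 8 tested members, where 19% of all tested miRNAs were called in either direction). From day 9 to day 21 it changed by 1.56 for miR-466h-3p, -1.87 for miR-466i-5p and -0.81 for miR-669f-3p (3 of 8, where 35.1% were called). Each of these contrasts takes its arms from different slides. Control arrays did not detect miR-466h-3p at day 3 or day 9 (1 of 4 did at day 21), and for miR-466f-3p 0 did at day 3 and 1 at day 9, so the values for both rest largely on undetected controls and not measured changes. With the replicate block, the day 3 to day 9 terms of miR-466f-3p (adjusted p = 0.0506) and miR-669f-3p (adjusted p = 0.0569) were not called.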

How the results depend on the processing

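The scalings move all miRNAs. The median difference of all 441 at days 3, 9 and 21 was 2.20, 2.42 and 2.07 with no scaling, -1.56, -2.06 and -1.36 under normexp, 0.60, 0.77 and 0.19 with the percentile over all probes, and 0.29, 0.33 and 0.16 in the authors' deposited values, and the share called higher among calls at day 9 was 98.5%, 7.73%, 89.6% and 76.8% against 44.5% in the main setting. Signs below are to be read against these shifts, and the cause of each change was not tested. The dim members are limited by background: no member passed a filter of detection on all 24 arrays, so that setting gave no value, and with no filter most residual variances were 0, which limma reports as unreliable.

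Members called, of 8, changed by over 1.5 times as follows. With the percentile over all probes they were 3 at day 9, 0 at day 21, 0 for control day 9 against day 3 and 0 for the effect at day 9 minus that at day 3. With quantile normalization they were 3 at day 9 and 1 for that difference of effects. With no scaling they were 7 at day 3, 6 at day 21, 0 between control days and 1 for that difference. With the authors' values they were 8 at day 3, 1 at day 21 and 0 between control days. With normexp they were 8, 8 and 7 at days 3, 9 and 21, 0 between control days, 1 between TSN days and 0 for both differences of effects. With the total gene signal they were 3 at day 9 and 0 at day 21, 0 between control days, 0 between TSN days and 0 for day 9 minus day 3. With the mean of the probes 1 was called at day 21. With no filter they were 1 at day 3, 1 at day 21, 1 between control days, 0 between TSN days and 1 for each difference of effects. With the replicate block 1 was called for day 9 minus day 3, and the block left 5 at day 9 and changed no other count by over 1.5 times. Detection at day 21 passed the exact permutation test when any spot well above background was enough (difference 7.5 members, p = 0.0286).

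Reversed at day 9 were miR-466f-3p (0.40), miR-466i-3p (0.016) and miR-669f-3p (1.35) with the percentile over all probes. With no scaling these were miR-466f-3p (1.59), miR-466h-3p (0.71), miR-466i-3p (1.05), miR-669e-5p (0.72) and miR-669f-3p (3.44) at day 9, miR-466f-3p (1.29), miR-466i-3p (1.08) and miR-669f-3p (1.68) at day 21, and, in day 9 minus day 3, miR-466f-3p (0.16) and miR-669f-3p (0.11), with miR-669e-5p (-0.72) in day 21 minus day 9. With the authors' values these were miR-466b-3p (0.18), miR-466f-3p (0.10), miR-466i-3p (0.19), miR-669e-5p (0.25) and miR-669f-3p (0.44) at day 9 and miR-669e-5p (-0.23) in day 21 minus day 9. With normexp these were miR-466b-3p (-2.12), miR-466f-3p (-1.95), miR-466h-3p (-1.995), miR-669f-3p (-1.07) and miR-669n (-1.38) at day 3, miR-669n (-1.26) at day 9, and miR-466h-3p (-1.81) and miR-669n (-1.48) at day 21. With the total gene signal these were miR-669f-3p (-3.91) at day 3, miR-466f-3p (1.41), miR-466h-3p (0.009) and miR-466i-3p (0.58) at day 9, miR-669f-3p (-1.23) between control days, miR-466h-3p (-0.15) between TSN days, miR-669f-3p (1.26) in day 9 minus day 3, and miR-466h-3p (-0.20) and miR-669f-3p (1.04) in day 21 minus day 9. The second probe of miR-466f-3p gave 0.013 at day 21. No alternative reversed miR-466i-5p in a comparison where it was called.

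With 1 array left out, members called ranged from 2 to 4 at day 3, 4 to 5 at day 9, 1 to 3 at day 21, 2 to 4 between control days, 2 to 4 between TSN days and 1 to 4 for each difference of effects. The difference in detected members ranged from 6.25 to 8.58 at day 3, 6.67 to 9.33 at day 9 and 2.75 to 4.42 at day 21.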
